A study of Mus musculus with 6 samples.

Results

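The genes described here are the Notch pathway genes that cortical neural stem cells (NSCs) use to signal to each other. They are the receptors *Notch1*, *Notch2* and *Notch3*, the ligands *Dll1*, *Dll3* and *Jag1*, and the transcription factors *Hes1*, *Hes5*, *Hes6* and *Hey1*. They were chosen by name for their role in the pathway, with earlier results of these data known. Each name matched 1 row, so that they are 10 of the 53379 genes in the deposited values, and all 10 were abundant enough to be tested. NSCs were derived from the telencephalic cortex of E14.5 mouse embryos in which both alleles of *Tbl1xr1* carry loxP sites around exon V, and were grown with 10 ng/ml bFGF and 10 ng/ml EGF. They were infected with a lentivirus that carried either Cre-GFP, whose recombinase removes the floxed exon, or GFP only as control, and the GFP+ cells were sorted. All 6 libraries therefore came from *Tbl1xr1* flox/flox cells that had been infected and sorted, and the groups differ in the Cre recombinase. Cells with GFP only gave 3 libraries, which are replicates 1, 1_1 and 2. The 3 libraries labelled Cre are replicates 2, 2_2 and 3.

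Notch receptors are bound by Delta-like and Jagged ligands on neighbouring cells and are then cut by ADAM proteases and γ-secretase. The released intracellular part enters the nucleus and, with RBPJ and a Mastermind protein, turns on Hes and Hey genes, whose products repress proneural genes such as *Neurog2*. In the embryonic cortex this signal keeps progenitors dividing, and in its absence RBPJ recruits corepressors that include NCOR proteins and HDAC3. TBL1XR1 is a component of the NCOR corepressor complex.

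Libraries held between 7510615 and 14828100 reads on genes. mRNA of *Tbl1xr1* was not lower in the libraries labelled Cre. It was at 2522, 2190 and 2721 normalized counts in the 3 GFP libraries, and at 3774, 3463 and 2905 in those labelled Cre. Its log2 fold change was 0.45 (SE 0.14, limma adjusted p = 0.0600). A whole-gene count does not separate transcripts with and without the floxed exon, so it does not check the labels, and the groups are called by their labels throughout. The study describes checks of genotype and of *Tbl1xr1* mRNA and protein in the sorted cells, which were not analysed here. A normalized count is the number of reads on a gene divided by 1 size factor per library. The sources do not say which libraries came from separate cultures or embryos, and p-values therefore measure only the spread between these libraries, which may be technical. GFP replicates 1 and 1_1 differed by more than counting noise, with a variance 3.22 times that of counting, as did the other GFP pairs (3.22 and 3.39), so that they were not 1 library deposited again. Cre replicates 2 and 2_2 had 8.75 times the counting variance and the other Cre pairs 7.63 and 11.8 times. Whether such pairs share a culture cannot be told from these values.

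Promoters are shown for *Notch2* and *Jag1*, whose mRNA was higher in the libraries labelled Cre, and for *Hes5*, a direct target of the Notch intracellular domain whose mRNA did not pass the test. Each is 300 bases of RefSeq sequence (GRCm38.p6), from 250 bases before to 50 bases after the start of transcription, written 5′ to 3′ on the strand of the gene. Capitals mark the core letters of RBPJ sites (TGGGAA) in *Hes5*. In *Jag1* and *Notch2* they mark the letters of N-box (CACNAG) and class C (CACGNG) sites, which Hes and Hey proteins bind. Both strands were searched. CACGAG satisfies both of the latter patterns.
Hes5 promoter, chr4:154960673-154960972, plus strand: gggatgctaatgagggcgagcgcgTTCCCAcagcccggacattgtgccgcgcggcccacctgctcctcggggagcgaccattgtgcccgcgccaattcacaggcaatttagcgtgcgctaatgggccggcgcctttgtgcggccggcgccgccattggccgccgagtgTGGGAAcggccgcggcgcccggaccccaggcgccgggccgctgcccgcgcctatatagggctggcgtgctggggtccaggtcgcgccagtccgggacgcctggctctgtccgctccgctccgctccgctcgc
Jag1 promoter, chr2:137116471-137116770, minus strand: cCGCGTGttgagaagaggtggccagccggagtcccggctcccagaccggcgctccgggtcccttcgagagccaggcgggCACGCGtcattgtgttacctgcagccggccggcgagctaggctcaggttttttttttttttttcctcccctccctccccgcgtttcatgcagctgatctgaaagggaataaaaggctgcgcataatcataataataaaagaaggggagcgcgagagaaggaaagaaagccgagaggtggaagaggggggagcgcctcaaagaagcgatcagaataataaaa
Notch2 promoter, chr3:98013288-98013587, plus strand: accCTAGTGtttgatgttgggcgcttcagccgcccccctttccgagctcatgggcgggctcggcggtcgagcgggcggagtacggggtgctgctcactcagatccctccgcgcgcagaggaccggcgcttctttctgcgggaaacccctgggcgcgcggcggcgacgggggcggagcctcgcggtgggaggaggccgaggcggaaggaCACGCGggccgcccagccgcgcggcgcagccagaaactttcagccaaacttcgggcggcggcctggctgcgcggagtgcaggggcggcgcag
The *Hes5* promoter held the RBPJ core 2 times, as TTCCCA 226 bases and as TGGGAA 82 bases upstream of the start of its promoter entry. That start is not the one of the *Hes5* gene interval given below, which begins at 154960626. The whole printed *Hes5* stretch lies inside that interval. Of all 32851 promoters of this length, 25.6% held the RBPJ core at least once and 3.79% at least 2 times. The *Jag1* promoter held 2 class C patterns (CGCGTG at 249 bases and CACGCG at 171 bases upstream), and the *Notch2* promoter held 1 N-box pattern (CTAGTG at 247 bases) and 1 class C pattern (CACGCG at 42 bases). Of all promoters, 42.5% held an N-box and 27.5% a class C pattern. A promoter was available for 8 of the 10 genes, with 2 entries each for *Dll1* and *Hes6* and so 10 in all, and a gene counts where any of its entries matched. Of these 8, 1 held the RBPJ core, 5 an N-box and 5 a class C pattern. These are matches of letters and not measured binding.

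The receptor *Notch2* and the ligand *Jag1* were higher in the libraries labelled Cre, 1.98-fold (95% interval 1.29 to 3.04) and 1.48-fold (1.17 to 1.86). None of the 10 genes was lower at the same threshold. The transcription factors *Hes1*, *Hes5*, *Hes6* and *Hey1* had log2 fold changes between -0.15 and 0.15, and none passed the test. Receptors and ligands thus lay mainly above 0 and the Hes and Hey genes around 0. Of the 10 genes, 2 passed an adjusted p of 0.05 in the higher direction (limma on log2 of the normalized count plus 1, 3 against 3 libraries), where 4.74% of the 14840 genes tested did, and 0 passed in the lower direction, where 5.22% did. The count of 0 lower genes was also found with edgeR and with DESeq2 on the recovered reads, and at an unadjusted p under 0.05, where 13.2% of all genes tested were lower. At an unadjusted p under 0.05, 4 of the 10 were higher (12.2% of all genes tested). In 5 of the 10 every Cre library lay above every GFP library (14.7% of all genes tested), and in 0 every Cre library lay below (15.5%). The median log2 fold change of the 10 was 0.19, beside -0.001 for all genes tested. In such bulk libraries, a different number of cells that express a gene and a different amount of its RNA per cell cannot be told apart.

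**Figure D1:**
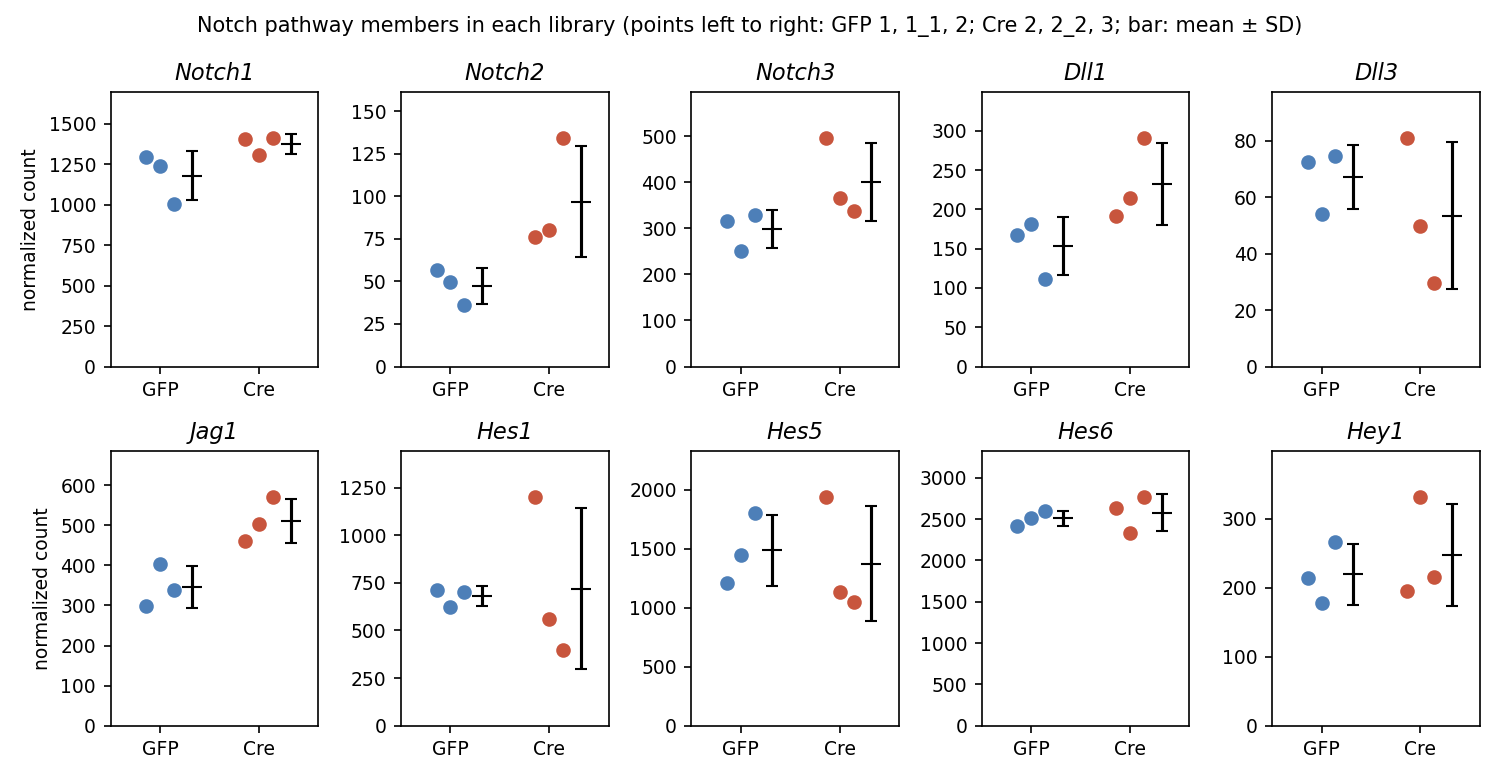
Normalized counts (y axis, from 0) of the 10 genes in each library, with points in the order GFP 1, 1_1, 2 and Cre 2, 2_2, 3 and a bar for the mean ± SD (n = 3). For all 3 receptors, *Dll1* and *Jag1* the lowest Cre point lies above the highest GFP point, while *Hes1* spreads from 399 to 1200.2 in the libraries labelled Cre.

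*Notch2* encodes a receptor of progenitors and glia and had the largest log2 fold change of the 10 genes (ENSMUSG00000027878, chr3:98013538-98150367, GRCm38.p6). It was at 56.9, 49.7 and 36.0 normalized counts in the GFP libraries, from 62, 34 and 27 reads. It was at 76.2, 80.1 and 134 in the libraries labelled Cre, from 110, 93 and 150 reads. Every Cre library lay above every GFP library, and Cre replicate 3 stood well above the other two. The mean was 47.5 ± 10.6 (SD, n = 3) in GFP and 96.8 ± 32.5 (n = 3) in Cre libraries, a log2 fold change of 0.99 (SE 0.28, limma adjusted p = 0.0491). The result lay at the edge of the threshold. Without Cre replicate 3 the log2 fold change was 0.73 (limma adjusted p = 0.121), without Cre replicate 2_2 it was 1.10 (0.0953), and without GFP replicates 1, 1_1 or 2 in turn it was 1.13 (0.0931), 1.03 (0.111) and 0.80 (0.176).

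*Notch1*, the main receptor of cortical progenitors, differed less (ENSMUSG00000026923, chr2:26457902-26503822). It was at 1293, 1236 and 1007 normalized counts in the GFP libraries and at 1407, 1305 and 1412 in the libraries labelled Cre. The groups did not overlap, but the lowest Cre library exceeded the highest GFP library only slightly. Its log2 fold change was 0.23 (95% interval -0.05 to 0.51, limma adjusted p = 0.291). Its exons share 1068 bases with the antisense gene *0610009E02Rik* and 414 bases with the antisense *Gm13568*, which are 7.50% and 2.91% of its exon length. These antisense genes had 289 to 960 and 370 to 1024 reads per library, beside 755 to 2032 for *Notch1*. The library kit does not mark strand, so reads there cannot be assigned to either gene.

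*Notch3*, a receptor of progenitors and of pericytes in vessels, lay between them (ENSMUSG00000038146, chr17:32120820-32166896). It was at 317, 252 and 329 normalized counts in the GFP libraries and at 497, 367 and 338 in the libraries labelled Cre. Again the groups did not overlap, although GFP replicate 2 and Cre replicate 3 were close. Cre replicate 2 was the highest. Between groups it differed by a log2 fold change of 0.41 (95% interval 0.02 to 0.80), with a limma adjusted p of 0.174. An antisense gene covers 6.07% of its exon length. Markers of pericytes and smooth muscle were nearly absent, with a summed level of 14.6 to 22.9 normalized counts in GFP and 13.4 to 53.3 in Cre libraries over 8 markers, 7 of which had at most 20 reads in every library, and *Pdgfrb* was at 0 in all. *Notch4*, the receptor of endothelial cells, was at 10.7 ± 6.02 and 14.9 ± 11.0 (n = 3 each) and had a log2 fold change of 0.35 (limma adjusted p = 0.751). The endothelial markers *Cdh5*, *Cldn5* and *Erg* were at 0 reads in all libraries, and the sum of the 8 endothelial markers was 28.0 to 41.3 in GFP and 15.2 to 22.2 in Cre libraries.

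*Jag1* encodes the Jagged ligand of the 3 ligands (ENSMUSG00000027276, chr2:137081451-137116520). It was at 299, 402 and 339 normalized counts in the GFP libraries and at 461, 503 and 570 in the libraries labelled Cre. All Cre libraries were higher than all GFP libraries, and the spread within each group was similar. The mean was 347 ± 52.0 (n = 3) and 511 ± 55.4 (n = 3), a log2 fold change of 0.56 (SE 0.15, limma adjusted p = 0.0397). Adjusted p-values were 0.037 with edgeR and 0.023 with DESeq2 on the recovered reads. The call was lost without GFP replicate 1 (0.46, limma adjusted p = 0.186), GFP replicate 2 (0.55, 0.130), Cre replicate 2_2 (0.57, 0.116) or Cre replicate 3 (0.48, 0.0844).

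*Dll1*, the Delta-like ligand through which committed progenitors activate Notch in their neighbours, had a log2 fold change as large as that of *Jag1* but a wider spread (ENSMUSG00000014773, chr17:15367354-15376932). It was at 167, 181 and 112 normalized counts in the GFP libraries and at 192, 214 and 291 in the libraries labelled Cre. The groups did not overlap, although GFP replicate 1_1 and Cre replicate 2 were close. Its log2 fold change was 0.60 (SE 0.22, limma adjusted p = 0.114), and it passed the test only without Cre replicate 2 (0.73, limma adjusted p = 0.0433) among the 16 alternatives. An antisense gene covers 20.5% of its exon length, so part of its reads is uncertain in strand.

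*Dll3*, a divergent Delta-like protein that does not activate Notch on other cells and acts inside the cell that makes it, went against the other ligands in direction (ENSMUSG00000003436, chr7:28293555-28301785). It was at 72.5, 54.1 and 74.7 normalized counts in the GFP libraries and at 81.0, 49.9 and 29.5 in the libraries labelled Cre. The groups overlapped, and the Cre libraries held both the highest and the lowest value. The log2 fold change was -0.42 (95% interval -1.17 to 0.32, limma adjusted p = 0.480), so that neither a fall nor a small rise can be told from no difference at this spread.

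*Hes1* encodes a repressor of proneural genes and is the Notch target with the widest spread here (ENSMUSG00000022528, chr16:30065357-30067796). It was at 715, 622 and 704 normalized counts in the GFP libraries and at 1200.2, 558 and 399 in the libraries labelled Cre. Cre replicate 2 lay above all GFP libraries and the other two Cre libraries lay below all of them. The highest and lowest Cre libraries differed 3.01-fold, a range reached by 4.81% of the genes tested, whereas the GFP libraries differed 1.15-fold. The arithmetic mean was slightly higher in Cre libraries (719 ± 424 against 680.2 ± 51.0, n = 3 each), while the log2 fold change was -0.08 (95% interval -0.74 to 0.59, limma adjusted p = 0.907). Without Cre replicate 2 it was -0.52 and passed the test (limma adjusted p = 0.0374), and without Cre replicate 3 it was 0.27 (0.549). With all libraries it was above 0 with edgeR (0.088) and DESeq2 (0.085) on the recovered reads, neither of which passed. No direction can therefore be given for *Hes1*.

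*Hes5* encodes another repressor of this kind (ENSMUSG00000048001, chr4:154960626-154962372). It was at 1205, 1445 and 1803 normalized counts in the GFP libraries and at 1936, 1130 and 1051 in the libraries labelled Cre. As for *Hes1*, Cre replicate 2 lay above all GFP libraries and the other Cre libraries lay below all of them. The log2 fold change was -0.15 (95% interval -0.63 to 0.33, limma adjusted p = 0.726). The antisense gene *Gm20421* covers 31.8% of its exon length and had at most 4 reads in any library.

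*Hes6*, whose product opposes HES1 and favours differentiation, was the steadiest of the Hes genes (ENSMUSG00000067071, chr1:91411483-91414038). It was at 2415, 2517 and 2594 normalized counts in the GFP libraries and at 2630, 2332 and 2767 in the libraries labelled Cre. The ranges of the groups overlapped, and the log2 fold change was 0.04 with a 95% interval of -0.22 to 0.29 (limma adjusted p = 0.881). *Hey1*, a related repressor, was at 214, 178 and 267 normalized counts in the GFP libraries and at 195, 331 and 216 in the libraries labelled Cre (ENSMUSG00000040289, chr3:8663359-8667038). Its groups also overlapped, and Cre replicate 2_2 alone stood above the GFP range. The log2 fold change of *Hey1* was 0.15 (95% interval -0.33 to 0.64, limma adjusted p = 0.722). *Hes6* and *Hey1* turned below 0 without Cre replicate 3 (-0.02) and without Cre replicate 2_2 (-0.08), respectively.

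**Figure D2:**
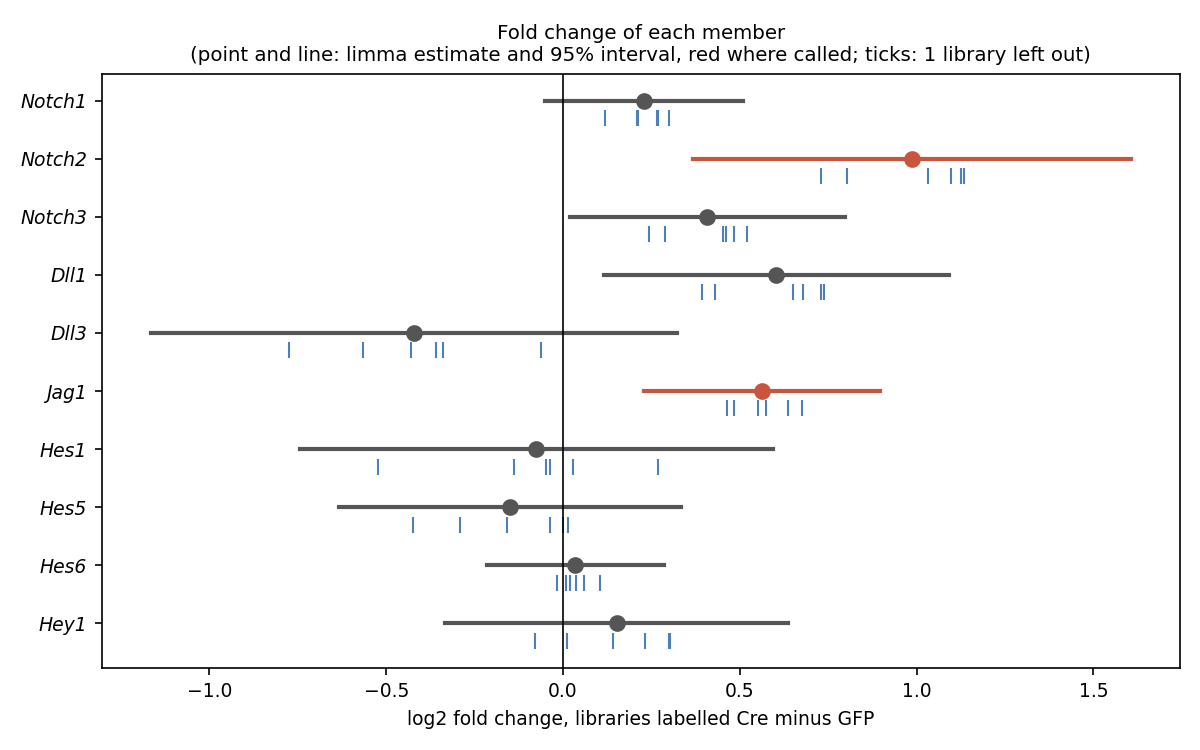
Log2 fold change (x axis, libraries labelled Cre minus GFP) of each of the 10 genes, with the limma estimate and its 95% interval as point and line, red where the adjusted p was under 0.05, and the estimates with 1 library left out as ticks. *Notch2* and *Jag1* are red and all their ticks lie above 0, while the ticks of *Hes1* run from -0.52 to 0.27.

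The Cre libraries did not order the 10 genes alike. Cre replicate 2 held the highest Cre value of *Notch3*, *Dll3*, *Hes1* and *Hes5*, and Cre replicate 3 held the lowest value of the same 4 genes. Cre replicate 3 held the highest value of *Notch1*, *Notch2*, *Dll1*, *Jag1* and *Hes6*, while *Notch2*, *Dll1*, *Jag1* and *Hey1* were lowest in Cre replicate 2. Of all genes tested, 34.9% had their highest Cre value in replicate 2, 28.6% in replicate 2_2 and 36.5% in replicate 3.

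Levels were compared between genes as normalized counts per kb of exon. In the GFP libraries the order was *Hes6* (1388 ± 49.6), *Hes5* (1089 ± 221), *Hes1* (334 ± 25.0), *Hey1* (99.7 ± 20.2), *Notch1* (82.8 ± 10.6), *Jag1* (59.5 ± 8.93), *Notch3* (37.2 ± 5.19), *Dll1* (36.4 ± 8.68), *Dll3* (23.3 ± 3.93) and *Notch2* (4.53 ± 1.01; SD, n = 3). Neighbours in this order whose libraries overlapped were *Hey1* with *Notch1* and *Notch3* with *Dll1*. The Hes genes were thus the most abundant and *Notch2* the least abundant mRNA of the 10. In the libraries labelled Cre, *Dll1* (55.1 ± 12.3) stood before *Notch3* (49.8 ± 10.5), but this pair overlapped there as well. *Notch2* remained last at 9.22 ± 3.09 and then overlapped *Dll3* at 18.6 ± 9.01.

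Within each role the make-up of the mRNA was compared as shares of the summed per-kb level. *Notch2* was 3.99%, 3.85% and 2.98% of the summed per-kb level of the 3 receptors in GFP replicates 1, 1_1 and 2. It was 4.32%, 5.26% and 8.30% in Cre replicates 2, 2_2 and 3, above all GFP libraries. *Notch1* remained the main receptor at 66.4% ± 4.65 in GFP and 62.2% ± 2.92 in Cre libraries (n = 3 each). *Jag1* was 49.8% ± 4.87 of the 3 ligands in GFP and 54.3% ± 2.21 in Cre libraries, and *Dll3* was 19.8% ± 4.82 and 11.8% ± 6.35. Both overlapped between groups. Among the Hes and Hey genes *Hes6* ran from 40.9% in Cre replicate 2 to 59.0% in Cre replicate 3, and *Hes1* from 16.6% to 7.55% in the same libraries, both wider than in the GFP libraries.

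**Figure D3:**
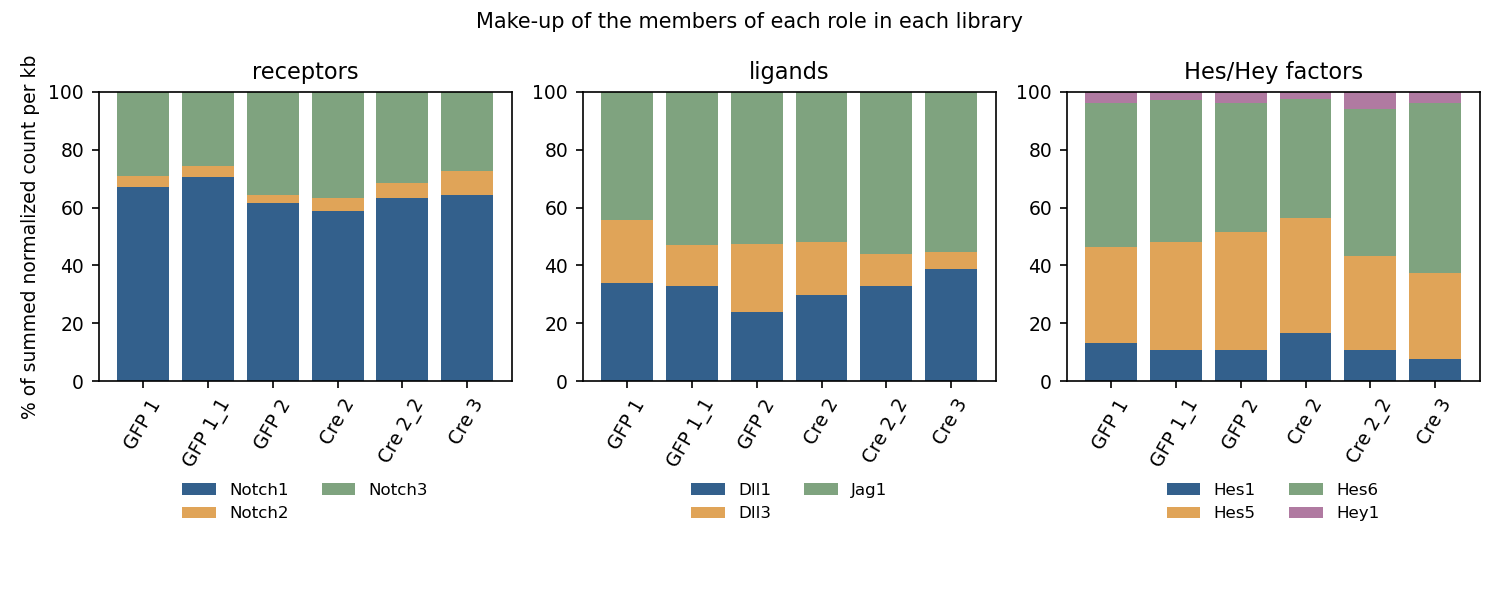
Share of each gene (y axis, percent of the summed normalized count per kb) among the receptors, ligands and Hes/Hey factors in each of the 6 libraries. The *Notch2* band is thickest in Cre replicate 3 (8.30%) and the *Hes1* band is thickest in Cre replicate 2 (16.6%).

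The rest of the pathway was read from lists of 75 further genes, of which 59 were tested. Of these, 4 were higher in the libraries labelled Cre, 4 were lower and 51 did not pass the test, and the median log2 fold change was -0.03. The 4 higher genes were the non-canonical ligands *Dner* and *Cntn1*, the γ-secretase subunit *Aph1a* and the Mastermind coactivator *Maml2*. The 4 lower genes were the glycosyltransferase *Mfng*, which modifies Notch receptors, the Mastermind coactivator *Maml3*, the acetyltransferase *Kat2a* and *Nrarp*, a direct target of Notch that restrains its signal. These 4 of 59 in each direction stand beside 4.74% and 5.22% of all genes tested.

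Ligands had the highest share of tested genes that passed. Of 10 ligands, 5 were tested and 3 were higher (*Jag1*, *Dner* and *Cntn1*), beside 4.74% of all genes tested. The median log2 fold change of the 5 was 0.60. *Cntn1*, an adhesion molecule of neural cells, was at 301, 259 and 263 normalized counts in the GFP libraries and at 573, 511 and 492 in the libraries labelled Cre (log2 fold change 0.94, SE 0.14, limma adjusted p = 0.00198). *Dner*, a transmembrane protein with EGF repeats, was at 754, 769 and 623 and at 1137, 1132 and 1425 (0.78, SE 0.14, limma adjusted p = 0.00578). Neither gene overlapped between the groups, and both passed the test in all 16 alternatives, unlike *Jag1*, which passed in 11. *Dll4* had 0 reads in 5 libraries and 3 in Cre replicate 3, and *Jag2* had 7, 2 and 1 reads in the GFP libraries and 2, 0 and 0 in the libraries labelled Cre, so that neither could be tested.

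Among 10 genes of the Hes and Hey family and its feedback targets, 5 were tested and 1 passed, *Nrarp*, in the lower direction. *Nrarp* was at 300.1, 331 and 343 normalized counts in the GFP libraries and at 204, 216 and 201 in the libraries labelled Cre. Every Cre library lay far below every GFP library, without the spread between Cre libraries seen for *Hes1* and *Hes5*. Its log2 fold change was -0.64 (SE 0.14, limma adjusted p = 0.0158). It was between -0.70 and -0.60 when a library was left out, and the call was lost without GFP replicate 1 (-0.70, limma adjusted p = 0.0573), 1_1 (-0.63, 0.0679) or 2 (-0.60, 0.0815). *Hey2* and *Heyl* had at most 3 reads in any library.

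Receptor glycosylation was represented by 5 genes, of which 1 fell. *Mfng*, Manic fringe, was at 113, 95.1 and 117 normalized counts in the GFP libraries and at 28.4, 27.5 and 37.6 in the libraries labelled Cre. The groups were far apart, the log2 fold change was -1.77 (SE 0.24, limma adjusted p = 0.00123), and it passed in all 16 alternatives. Lunatic fringe, *Lfng*, named here after its values were seen, was at 1466, 1828 and 1775 in the GFP libraries and at 1181, 3029 and 3613 in the libraries labelled Cre. Cre replicate 2 lay below and the other Cre libraries above all GFP libraries, the reverse of *Hes1* and *Hes5*, and the log2 fold change was 0.48 (SE 0.32, limma adjusted p = 0.387).

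Of 10 genes for receptor cleavage 1 passed, *Aph1a*, which rose from 286 ± 21.3 to 473 ± 77.5 normalized counts (n = 3 each, log2 fold change 0.72, SE 0.16, limma adjusted p = 0.0156). None of 14 genes for trafficking of ligands and receptors passed in limma. At an unadjusted p under 0.05 there were 3, with 1 higher and 2 lower, beside 12.2% and 13.2% of all genes tested. In the nuclear complex, 3 of 9 genes passed. *Maml2* was at 467, 430.1 and 545 in the GFP libraries and at 644, 788 and 702 in the libraries labelled Cre (log2 fold change 0.57, SE 0.14, limma adjusted p = 0.0273). *Maml3* was at 34.0, 36.6 and 36.0 and at 14.54, 12.05 and 11.64 (-1.41, SE 0.32, limma adjusted p = 0.0191). These paralogous coactivators thus moved in opposite directions, while *Maml1* was at 39.8 ± 6.04 and 36.3 ± 7.60 (-0.14, limma adjusted p = 0.802). *Kat2a* fell from 273 ± 22.6 to 164 ± 14.3 (-0.74, SE 0.15, limma adjusted p = 0.0132). *Rbpj*, the DNA-binding factor of the pathway, was at 240.2 ± 22.7 and 227 ± 45.6 (-0.10, limma adjusted p = 0.780).

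Calls in these groups did not all hold in the alternatives. With 1 library left out, and so fewer in the test, the log2 fold changes kept their direction. They ran from 0.64 to 0.86 for *Aph1a* and from 0.49 to 0.66 for *Maml2*. For *Kat2a* they ran from -0.81 to -0.69 and for *Maml3* from -1.51 to -1.36. *Aph1a* and *Maml2* did not pass in 4 and *Kat2a* in 3 of 16 alternatives, and *Maml3* did not pass in 6 of 15. The highest limma adjusted p-values with 1 library left out were 0.0834 for *Aph1a*, 0.121 for *Maml2*, 0.0698 for *Kat2a* and 0.0859 for *Maml3*.

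None of the 16 tested corepressors of RBPJ and Hes proteins passed in limma. At an unadjusted p under 0.05 there were 6, with 4 higher and 2 lower, beside 12.2% and 13.2% of all genes tested. Components of the TBL1XR1 corepressor complex were among the 16. *Ncor1* was at 4079 ± 259 and 4170.1 ± 289 normalized counts (log2 fold change 0.03, limma adjusted p = 0.896), and *Hdac3* was at 235 ± 36.9 and 226 ± 16.0 (-0.05, 0.892). *Neurog2*, a proneural gene that Hes proteins repress, had 0 reads in all GFP libraries and 7, 23 and 22 reads in Cre replicates 2, 2_2 and 3. Against a floor of 3 reads per library this is at least 3.98-fold higher, and the gene was below the abundance set for the test.

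**Figure D4:**
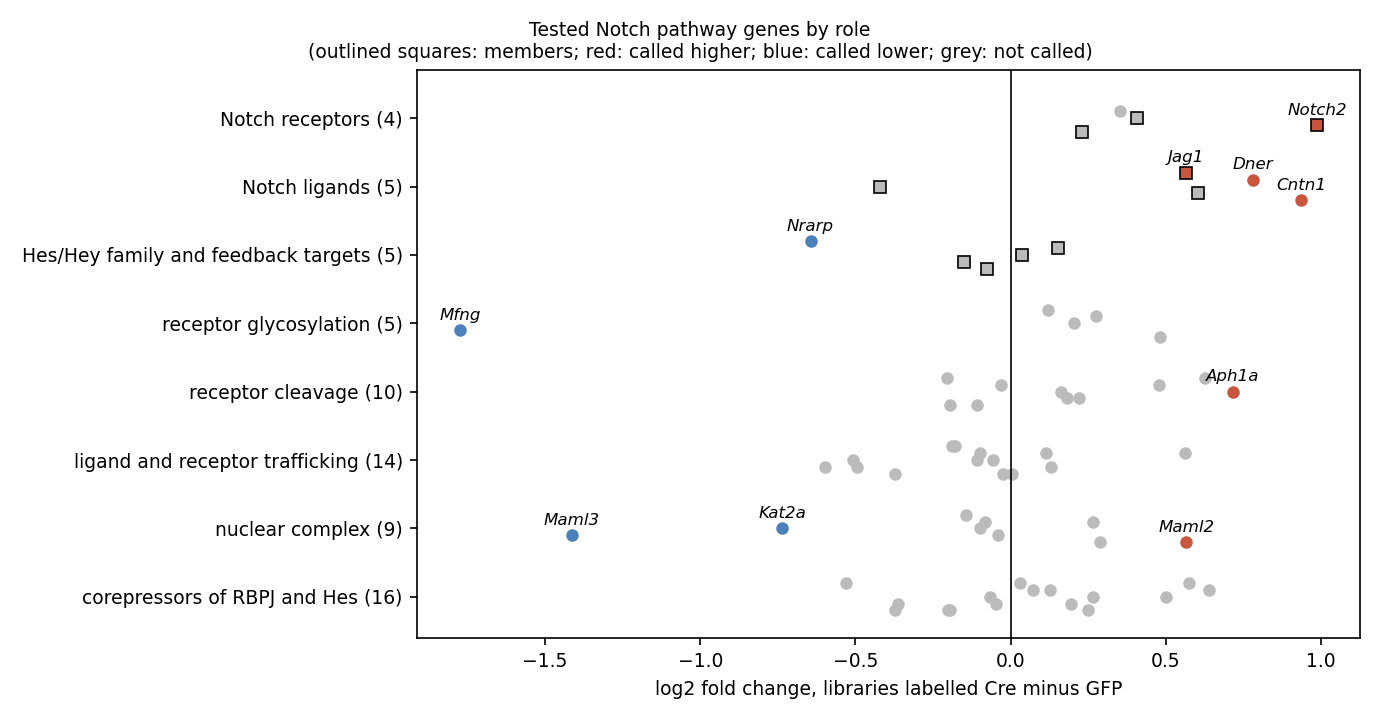
Log2 fold change (x axis, libraries labelled Cre minus GFP) of the tested genes in each role with more than 1 tested gene (y axis, number tested in brackets), with the 10 genes described here as outlined squares, genes past an adjusted p of 0.05 in red or blue and the rest in grey. Ligands lie mostly to the right with *Jag1*, *Dner* and *Cntn1* in red, *Nrarp*, *Mfng*, *Maml3* and *Kat2a* are blue, and no corepressor is coloured.

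Some markers of glial lineages were higher in the libraries labelled Cre, as were *Notch2* and *Jag1*, genes that astrocytes and their precursors also express. Of 7 tested astrocyte markers 3 were higher in the libraries labelled Cre and 0 lower, led by *S100b* (log2 fold change 3.10, limma adjusted p = 7.39e-07), *Aqp4* (1.64, 0.0228) and *Slc1a2* (1.16, 0.000382). In the other direction, *Aldh1l1* was at 17.3 ± 2.34 normalized counts in GFP and 5.35 ± 3.30 in Cre libraries (n = 3 each), with every Cre library below every GFP library, and did not pass (-1.65, limma adjusted p = 0.0650). *Gfap* had 0, 1 and 3 reads in the GFP libraries and 3, 12 and 2 in Cre replicates 2, 2_2 and 3, too few for the test. The sum of the 8 astrocyte markers was 8922 to 9627 normalized counts in GFP and 12897 to 14021 in Cre libraries. Most of it came from *Slc1a3* (log2 fold change 0.29, limma adjusted p = 0.126) and *Aldoc* (0.15, 0.481), which did not pass. Of 6 tested oligodendrocyte lineage markers 3 were higher and 0 lower, led by *Pdgfra* (0.86, 0.0136), *Olig2* (0.71, 0.00747) and *Cspg4* (0.64, 0.0285), and the sum of 7 ran from 12484 to 14404 and from 17232 to 19636. *Sox10* had 4, 1 and 2 reads in the GFP libraries and 1, 13 and 5 in Cre replicates 2, 2_2 and 3, too few for the test. Of all genes tested, 4.74% were higher and 5.22% lower. The part of glial lineages in the values of *Notch2* and *Jag1* was not tested.

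NSC markers were present in both groups. The sum of 10, which include *Hes1* and *Hes5*, was 33769 to 37518 normalized counts in GFP and 32309 to 34195 in Cre libraries. *Nes* (log2 fold change -0.85, limma adjusted p = 0.00384) and *Sox1* (-2.27, 3.66e-05) were lower and the other 8 did not pass. Of 6 tested neuron markers, *Gap43* was lower (-0.76, 0.00975) and the others did not pass, with *Stmn2* at 0 reads in all libraries. The sum of 8 was 17539 to 18567 in GFP and 14756 to 16744 in Cre libraries. Most of this sum came from *Gap43*, at 8711 ± 438 and 5196 ± 1010, and from *Map2*, at 9210 ± 95.2 and 10541 ± 626 (n = 3 each). For *Map2* every Cre library lay above every GFP library (0.19, limma adjusted p = 0.337). None of 3 tested intermediate progenitor markers passed in limma, and 1 was lower at an unadjusted p under 0.05. *Eomes* and *Neurog2*, also on this list of 5, were below the abundance set for the test and went the other way. *Eomes* had 0, 1 and 0 reads in the GFP libraries and 13, 12 and 14 in Cre replicates 2, 2_2 and 3. *Neurog2* had 0 reads in all GFP libraries and 7, 23 and 22 in the same Cre replicates. Microglia markers summed to 162 to 205 in GFP and 166 to 273 in Cre libraries, with *Tmem119* at 0 in all. Nearly all of this was *Csf1r*, at 183 ± 25.7 and 222 ± 53.3 (n = 3 each), which did not pass (0.25, limma adjusted p = 0.483). Of the 6 microglia markers, 5 had at most 20 reads in every library.

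The genes closest in pattern to the 2 genes that passed were found by the root mean square difference of log2 values over the 6 libraries, each centred on the mean of its GFP libraries. For *Notch2* they were *Fkbp14* (0.146), *5430431A17Rik* (0.158) and *Cmya5* (0.158). *Fkbp14* was at 89.9, 71.7 and 56.0 normalized counts in the GFP libraries and at 129, 131 and 167 in the libraries labelled Cre. GFP replicate 2 was lowest and Cre replicate 3 highest as for *Notch2*, a likeness that follows from how these genes were picked. For *Jag1* they were *Arhgef26* (0.055), *Mertk* (0.069) and *Kidins220* (0.069). *Arhgef26*, the closest, was at 623, 888 and 746 normalized counts in the GFP libraries and at 1006, 1048 and 1147 in the libraries labelled Cre. *Mertk* was at 173, 206 and 168 and at 242, 265 and 304. *Kidins220* was at 952, 1186 and 1000 and at 1500, 1544 and 1613.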

How the data were processed

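RNA-seq values of 3 GFP and 3 Cre libraries of mouse NSCs were grouped by the sample labels. The authors deposited a signal per gene, the normalized count, which is a read count over the size factor of its library. The paper names TopHat with mm9 and mm10, whereas the submitters' processing notes name STAR 2.7, DESeq2 and mm10. The counter, its strand setting and the annotation are not given in the sources used here. Libraries were made with a kit that does not mark strand. The 6 columns of the authors' own comparison (means, log2 fold changes, test statistics and p-values) were not used. Dividing by the worth of 1 read gave whole reads for 100% of values within 0.001 reads, and so totals of 7510615 to 14828100 per library, with 15.9% to 22.9% in the 10 most abundant genes.

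All 6 libraries were tested with limma 3.58.1 in R 4.3.3 (lmFit, then eBayes with its trend option) on log2 values with a pseudocount of 1. The 14840 genes whose normalized count averaged 10 or more were kept, and two-sided p-values were adjusted by Benjamini-Hochberg over all of them, with a threshold of 0.05. Fold changes are on that scale and are understated for genes with low counts. Of the 53379 genes, 1 without a value in 1 library was left out. The recovered reads were also tested with edgeR 4.0.16 (quasi-likelihood) and DESeq2 1.42.0, which called 1483 and 1755 genes. The other alternatives were a pseudocount of 0.5 or 5, no filter or a mean of at least 50, scaling by TMM or total count, averaging GFP replicates 1 and 1_1 or Cre replicates 2 and 2_2, and leaving out each library. The steps were tested on simulated counts.

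The 10 genes and all lists were chosen with earlier results of these data known. Genes named are the 10, *Tbl1xr1*, every gene of the pathway lists past the threshold, 15 pathway genes set by name (some of which are not reported here), up to 3 genes past the threshold per marker list, and for *Notch2* and *Jag1* the 3 genes nearest in pattern. Promoters and gene coordinates were taken from RefSeq (GRCm38.p6) and exon lengths from GENCODE M1 (mm9).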

Additional observations from a re-analysis of the deposited data

How the results depend on the processing

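No paired analysis was possible because the groups share only 1 replicate number. Over 16 alternatives, *Notch2* passed in 8 and *Jag1* in 11, both above 0 in all. Of the 10 genes, 1 was higher with no filter on low values and with a mean of at least 50, in both cases because *Notch2* missed the threshold (limma adjusted p = 0.0513 and 0.0509), and 0 with GFP replicates 1 and 1_1 averaged. With that averaging 660 genes differed, beside 1478 without it, and there were 2 higher and 2 lower genes in the rest of the pathway, with 1 library fewer in the test. With each library left out in turn, the count of all genes differing ran from 558 (without GFP replicate 1) to 2396 (without Cre replicate 2), of the 10 genes 0 to 3 were higher and 0 to 1 lower, the 1 being *Hes1* without Cre replicate 2, and of the rest of the pathway 2 to 7 were higher and 1 to 6 lower. The log2 fold change of *Hes1* turned above 0 with edgeR (0.088) and DESeq2 (0.085) on the recovered reads, and ran from -0.52 (without Cre replicate 2) to 0.27 (without Cre replicate 3) with a library left out. In the same way *Hes5* ran from -0.43 (without Cre replicate 2) to 0.015 (without Cre replicate 3), with 0.00061 without GFP replicate 2. *Hes6* ran from -0.018 (without Cre replicate 3) to 0.11, and *Hey1* from -0.078 (without Cre replicate 2_2) to 0.30. The cause was not tested. *Notch2* rests on 27 to 150 reads and *Dll3* on 33 to 117 reads per library, the fewest of the 10 in every library, which limits their precision. *Tbl1xr1* was higher with DESeq2 (0.45, adjusted p = 0.0398) and without Cre replicate 3 (0.55, limma adjusted p = 0.0234).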
